A study of Mus musculus with 8 samples.

Results

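The interferon-stimulated genes described here are 9 genes that cells switch on in answer to interferon: Irf7, Usp18, Isg15, Ifit1, Ifit2, Ifit3, Oasl2, Rsad2 and Bst2. They were taken by name from the authors' deposited comparison and joined by Ensembl identifier to the counts of 8 libraries. All 9 were found, among 49671 gene identifiers in the counts table, and all 9 were among the 20162 genes that passed the filter on low counts. The libraries are RNA from GLI2+ stromal cells of adult mouse lung, sorted as live cells positive for yellow fluorescent protein (YFP). The 4 control mice were Gli2creERT2-tdt:R26RYFP and the other 4 were Gli2creERT2-tdt:R26RYFP/SmoM2, so every mouse carried the tamoxifen-inducible Cre expressed from Gli2 and the YFP reporter. SmoM2 is an activated form of Smoothened, the transducer of Hedgehog signalling. Per the labels' protocols, SmoM2 mice received intraperitoneal tamoxifen for 5 days at a daily 200 mg/kg. Whether control mice were dosed alike is not given in the sources used here.

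Interferons are secreted cytokines that bind cell-surface receptors and act through the kinases JAK1 and TYK2 on transcription factors that bind the interferon-stimulated response element in the promoters of target genes. The targets block viral replication at many steps, and some feed back on the pathway: IRF7 raises interferon production, while USP18 dampens the receptor. Lung fibroblasts express the receptors and keep a low basal level of these genes without infection.

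The promoters were searched for the response element, which was not used to choose the genes. RefSeq promoter sequences (GRCm38.p6) were at hand for 8 of the 9 genes, Usp18 being without one. The core of the response element, GAAA followed after any 2 bases by GAAA, on either strand and with overlapping matches counted, was found within 250 bases upstream of the start site for 5 of these 8 genes. The same search matched 2.98% of all 32851 promoters of that length. A match is a description of the letters, not a bound site. The stretches around the matches are printed 5′ to 3′ on the strand of the gene, with the matched letters in capitals, because these are the genes whose values are compared below.
Ifit1, chr19:34640745-34640853, plus strand: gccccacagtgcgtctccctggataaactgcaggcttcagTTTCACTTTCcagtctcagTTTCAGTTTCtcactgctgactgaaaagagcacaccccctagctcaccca
Ifit3, chr19:34583333-34583456, plus strand: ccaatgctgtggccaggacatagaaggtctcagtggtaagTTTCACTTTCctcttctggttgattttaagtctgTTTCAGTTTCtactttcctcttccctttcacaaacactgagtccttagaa
Isg15, chr4:156200835-156200936, minus strand: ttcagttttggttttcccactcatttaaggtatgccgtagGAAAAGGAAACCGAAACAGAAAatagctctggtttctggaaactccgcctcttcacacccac
Rsad2, chr12:26456523-26456612, minus strand: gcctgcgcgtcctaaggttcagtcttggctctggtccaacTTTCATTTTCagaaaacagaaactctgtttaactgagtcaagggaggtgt
Bst2, chr8:71537547-71537642, minus strand: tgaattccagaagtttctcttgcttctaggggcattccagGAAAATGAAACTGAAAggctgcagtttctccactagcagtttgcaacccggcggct

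Ifit1 and Ifit3 each held 2 separate matches, starting 104 and 85 bases upstream in Ifit1 and 156 and 122 bases upstream in Ifit3. Isg15 held 3 overlapping matches, the first 78 bases upstream, and Bst2 held 2 overlapping matches, the first 130 bases upstream. Rsad2 held 1 match, 120 bases upstream. These letters were not in the windows of Irf7, Oasl2 and Ifit2.

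Per length of exon, Bst2 was the most abundant of the 9 genes and Rsad2 the least. On the scale of CPM (counts per M counts, with library sizes scaled by edgeR's TMM method) per kilobase, Bst2 averaged 35.7 ± 4.59 (SD over 8 libraries), Ifit3 10.2 ± 4.00, Isg15 7.86 ± 2.55, Ifit2 6.95 ± 1.88 and Oasl2 4.59 ± 1.85. Irf7 averaged 3.09 ± 0.82, Ifit1 2.92 ± 1.38, Usp18 2.01 ± 0.92 and Rsad2 0.67 ± 0.27. Bst2 stood above Ifit3 in 8 of 8 libraries. Ifit3, Isg15 and Ifit2 could not be put in a fixed order, since Ifit3 was above Isg15 in 6 of 8 libraries and Isg15 above Ifit2 in 5 of 8. The order below them was steadier, with Ifit2 above Oasl2 in 7 of 8 libraries and Usp18 above Rsad2 in 8 of 8. Rsad2 rests on the fewest counts, 149 to 420 units of estimated count per library, or about 29.8 to 84.0 fragments if 1 fragment adds 5 units.

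The 8 libraries held 91.6 to 111.6 M units. Smo was at 124.2 ± 13.3 CPM (SD, n = 4) in the controls and 129.0 ± 8.80 CPM (n = 4) in the SmoM2 group, and the Hedgehog targets Gli1 and Ptch1 at 99.3 ± 32.9 against 101.3 ± 21.5 CPM and 172.5 ± 57.4 against 158.9 ± 50.8 CPM. Hhip, another Hedgehog target, was at 353.3 ± 100.6 against 414.3 ± 197.6 CPM. It was highest in SmoM2 3, at 682.2 CPM, whereas Gli1 and Ptch1 were highest in control 2. None of these genes passed the edgeR test, so the label is not borne out by them. The libraries are called SmoM2-labelled throughout, also where a direction is given. Stromal markers (Col1a1, Pdgfra and 6 others) summed to 15670 to 31180 CPM in the controls and 18690 to 30750 CPM in SmoM2-labelled libraries. No marker was at 0 in any library. The sum was lowest in control 4, at 15670 CPM, and next lowest in SmoM2 3, at 18690 CPM. Other SmoM2-labelled libraries had 26800 to 30750 CPM. Pdgfra and Tcf21 did not follow the sum, at 2059 and 223.1 CPM in SmoM2 3 against control means of 1748 and 193.9 CPM. A library name such as SmoM2 3 gives the group and the number of its column, which is not tied to an animal. Sex was read from Xist and Ddx3y, with 2 libraries of each sex per group. In sorted bulk RNA, fewer cells of a type and less RNA per cell cannot be told apart.

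None of the 9 genes differed between the groups by edgeR's quasi-likelihood test, while 1 SmoM2-labelled library, SmoM2 3, stood high in most of them. After adjustment over all genes, 0 of 9 passed, against 0.0% of the 20162 genes tested, and each adjusted p was 0.9999. DESeq2 also called 0 of 9 (0.262% of its genes), and 0 of 9 had an adjusted p under 0.05 in the authors' deposited table (0.0498% of its genes). At an unadjusted p under 0.05, edgeR counted 1 of 9, Bst2, against 3.75% of all genes in either direction and 1.74% in the direction of Bst2. Mean levels were higher in SmoM2-labelled libraries for 8 of 9 genes, where 49.0% of all genes had a log2 fold change above 0. The median log2 fold change of the 9 was 0.31, and that of all genes −0.00.

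**Figure D1:**
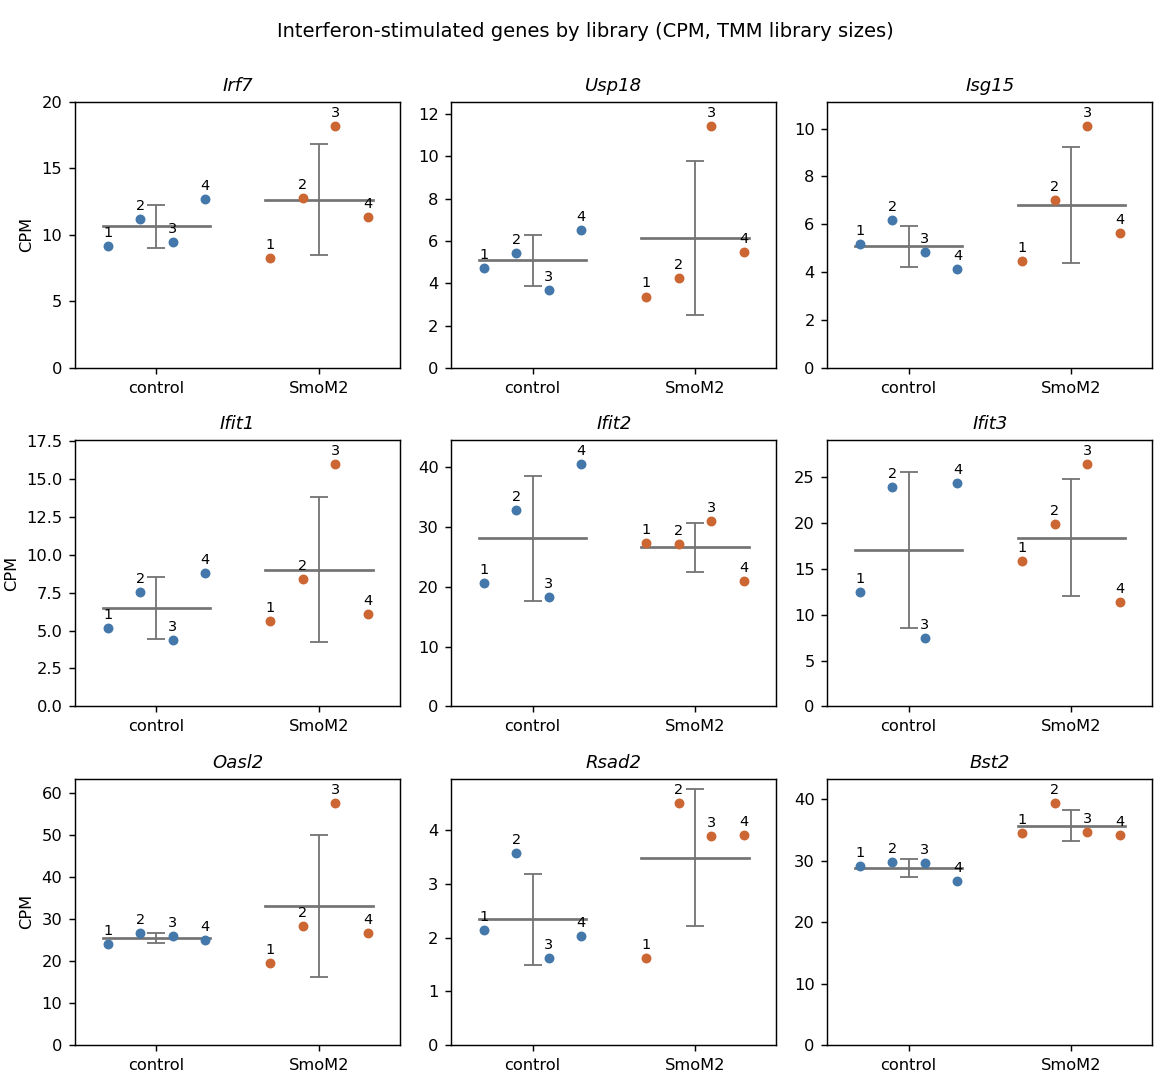
CPM of the 9 genes (vertical axes, starting at 0) in the 4 control (blue) and 4 SmoM2-labelled (orange) libraries, numbered by column; horizontal lines and bars are the mean ± SD. SmoM2 3 is the highest point in 6 panels, while in the Bst2 panel all 4 SmoM2-labelled libraries, from 34.2 to 39.4 CPM, lie above all 4 controls.

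Irf7 encodes the transcription factor that amplifies type I interferon production (ENSMUSG00000025498, mm10 chromosome 7 from 141262706 to 141266481). It was at 9.18, 11.2, 9.50 and 12.7 CPM in controls 1 to 4 and at 8.30, 12.8, 18.2 and 11.4 CPM in SmoM2 1 to 4. The groups overlapped, with both the lowest and the highest value in the SmoM2-labelled group. The means were 10.6 ± 1.63 and 12.7 ± 4.15 CPM (SD, n = 4 each). On the log2 scale the difference was 0.25, with an SE of 0.23 and a 95% interval from −0.28 to 0.78. Without SmoM2 3 the log2 fold change of Irf7 was 0.02. Exons of Irf7 share 1.2% of their bases with Phrf1 on the opposite strand.

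Usp18 encodes the protease that removes ISG15 from proteins and restrains the interferon receptor (ENSMUSG00000030107, chromosome 6 from 121245906 to 121270917). Controls had 4.72, 5.44, 3.68 and 6.52 CPM, and the SmoM2-labelled libraries had 3.38, 4.24, 11.5 and 5.50 CPM. SmoM2 3 thus had more than any other library, and SmoM2 1 had the least of all 8. The log2 fold change was 0.27 (−0.60 to 1.14) with all libraries and −0.22 (−0.82 to 0.38) without SmoM2 3, a change of direction. Exons of Usp18 share 4.4% of their bases with Gm44148 on the opposite strand. The library kit named in the labels is not stated to keep strand, so a small part of the counts of Usp18 and Irf7 could come from these neighbours.

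Isg15 encodes the ubiquitin-like protein that is attached to other proteins during an interferon response (ENSMUSG00000035692, chromosome 4 from 156199424 to 156200818). It measured 5.18, 6.17, 4.83 and 4.14 CPM in the controls and 4.47, 7.00, 10.1 and 5.64 CPM in SmoM2-labelled libraries. SmoM2 3 was again highest, SmoM2 2 was also above all controls, and SmoM2 1 and SmoM2 4 lay within their range. The log2 fold change was 0.42 (SE 0.26, interval −0.17 to 1.02), and 0.17 without SmoM2 3.

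The 3 Ifit genes encode proteins with tetratricopeptide repeats that bind foreign RNA or one another. They lie in the same direction within 99.3 kb of chromosome 19, Ifit2 (ENSMUSG00000045932) from 34550694 to 34576419, Ifit3 (ENSMUSG00000074896) from 34583531 to 34588731 and Ifit1 (ENSMUSG00000034459) from 34640871 to 34650009. Ifit1 was at 5.14, 7.56, 4.40 and 8.82 CPM in the controls and at 5.61, 8.37, 16.0 and 6.12 CPM in SmoM2-labelled libraries. Its highest library, SmoM2 3, was 3.63 times its lowest, control 3, the widest range of the 9 genes. The log2 fold change of Ifit1 was 0.48 (SE 0.37, interval −0.37 to 1.32), and 0.05 without SmoM2 3.

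Ifit2 behaved otherwise. Its values were 20.6, 32.9, 18.3 and 40.4 CPM in the controls and 27.3, 27.0, 30.9 and 20.9 CPM in SmoM2-labelled libraries, so the highest and the lowest library were both controls. It was the 1 gene of the 9 with a lower mean in SmoM2-labelled libraries, at 28.0 ± 10.4 and 26.5 ± 4.13 CPM, and its log2 fold change was −0.08 (−0.66 to 0.50). Ifit3 measured 12.5, 23.9, 7.43 and 24.4 CPM in the controls and 15.8, 19.9, 26.4 and 11.4 CPM in SmoM2-labelled libraries. Controls 2 and 4 thus came close to SmoM2 3, and control 3 was lowest. The log2 fold change of Ifit3 was 0.11 (−0.80 to 1.02), and −0.12 without SmoM2 3.

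Reads of Ifit3 are hard to place, because 51.2% of its distinct 50-base stretches also occur in Ifit3b, a near copy in the same cluster. Ifit3b was listed at 6.99, 5.94, 4.26 and 6.08 CPM in the controls and 5.22, 5.31, 17.7 and 7.10 CPM in SmoM2-labelled libraries, again highest in SmoM2 3. How the authors' counting split the shared reads is not given in the sources used here. With the counts of both genes summed, an alternative chosen after seeing the data, the log2 fold change was 0.25 in place of 0.11. For the other 8 genes the shared stretches ranged from 0.0% (Ifit2, Irf7, Rsad2 and Bst2) to 7.1% (Ifit1).

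Oasl2 belongs to the oligoadenylate synthetase-like family of antiviral proteins (ENSMUSG00000029561, chromosome 5 from 114896936 to 114912234). Its controls were close together at 24.0, 26.6, 26.1 and 25.0 CPM, whereas the SmoM2-labelled libraries had 19.4, 28.4, 57.7 and 26.8 CPM. The highest library, SmoM2 3, had 2.97 times the level of the lowest, and SmoM2 1 was below all controls. The means were 25.4 ± 1.15 and 33.1 ± 16.9 CPM (SD, n = 4 each), and the log2 fold change of 0.38 (−0.30 to 1.06) became −0.03 (−0.35 to 0.29) without SmoM2 3.

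Rsad2 encodes viperin, an enzyme that makes a chain-terminating nucleotide (ENSMUSG00000020641, chromosome 12 from 26442746 to 26456452). It was at 2.14, 3.57, 1.62 and 2.03 CPM in the controls and at 1.62, 4.51, 3.90 and 3.91 CPM in SmoM2-labelled libraries. The libraries SmoM2 2, 3 and 4 were above all controls, and SmoM2 1 was level with the lowest control. The log2 fold change was 0.58 (SE 0.36, interval −0.25 to 1.41), the highest of the 9, with an unadjusted p of 0.150. Without SmoM2 3 it was 0.52, so this library did not set it.

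Bst2 encodes tetherin, a membrane protein that holds budding virus particles on the cell (ENSMUSG00000046718, chromosome 8 from 71534255 to 71537456). Its values were 29.1, 29.8, 29.6 and 26.7 CPM in the controls and 34.6, 39.4, 34.7 and 34.2 CPM in SmoM2-labelled libraries. All 4 SmoM2-labelled libraries were above all 4 controls, which held for 1 of the 9 genes and for 1.02% of all genes tested (2.44% were apart in either direction). The means were 28.8 ± 1.42 and 35.7 ± 2.49 CPM (SD, n = 4 each), and the log2 fold change was 0.31 (SE 0.08, interval 0.13 to 0.50). The edgeR p was 0.00434 before adjustment and 0.9999 after, and the DESeq2 adjusted p was 0.142, so Bst2 did not pass either test over all genes. SmoM2 3 was not its highest library, and the log2 fold change without it was 0.32 (0.12 to 0.53).

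**Figure D2:**
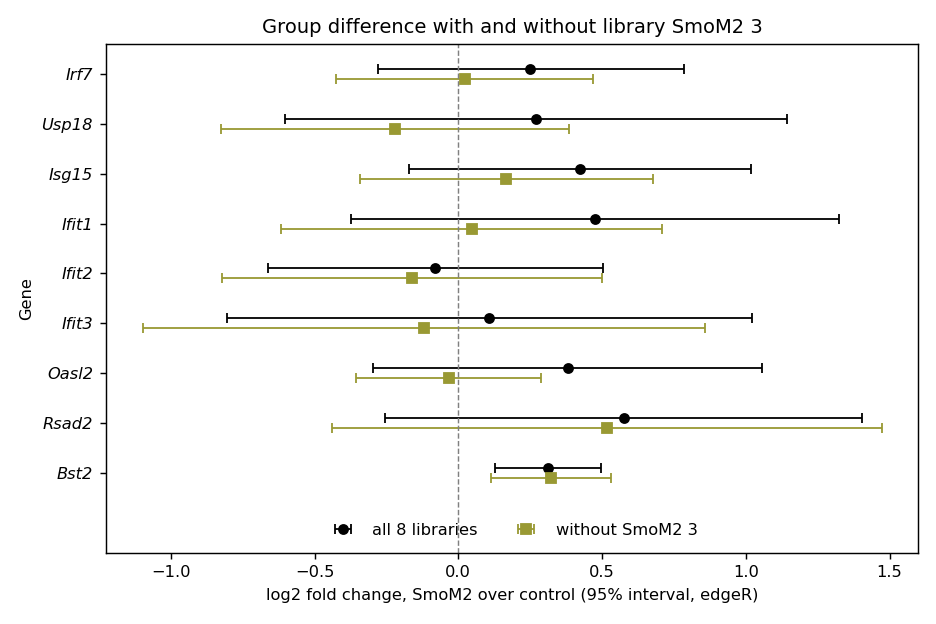
log2 fold change of SmoM2-labelled over control libraries (horizontal axis) with its 95% interval from edgeR, for each gene with all 8 libraries (black circles) and without SmoM2 3 (olive squares). The interval excludes 0 for Bst2 alone in both fits, and Usp18, Ifit3 and Oasl2 move to the other side of 0 without SmoM2 3.

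Across the 9 genes, SmoM2 3 was the highest of the 8 libraries for 6 (Irf7, Usp18, Isg15, Ifit1, Ifit3 and Oasl2), where 11.2% of all genes tested were highest there. Relative to the control mean on the log2 scale, SmoM2 3 lay between 0.22 (Ifit2) and 1.35 (Ifit1), with a median of 0.79. SmoM2 1 had a median of −0.17 and the lowest level of Irf7, Usp18 and Oasl2, but lay above the control mean for Bst2, Ifit3 and Ifit2. Control 3 had the lowest median, −0.43, and was lowest for 4 genes (Ifit1, Ifit2, Ifit3 and Rsad2), against 12.0% of all genes. Without SmoM2 3, 5 of the 9 genes had a log2 fold change above 0 (48.0% of all genes in that fit), and their median was 0.02.

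**Figure D3:**
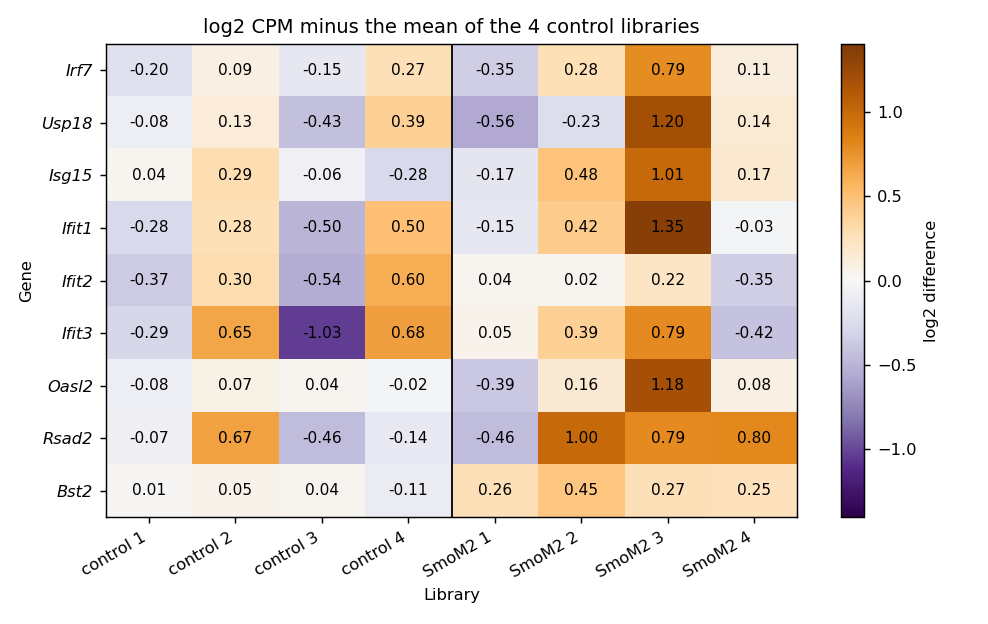
log2 CPM of each gene (rows) in each library (columns) minus its mean over the 4 controls; brown is higher and purple lower, with the value printed in each cell. SmoM2 3 is above the control mean in all 9 rows, by 0.22 to 1.35, while Bst2 is above it in all 4 SmoM2-labelled libraries.

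Within males, with 2 libraries per group, 7 of 9 genes had a higher mean in SmoM2-labelled libraries, and within females 7 of 9. Ifit2, Ifit3, Oasl2 and Usp18 went opposite ways in males and females. Ifit2 averaged 19.4 CPM in the controls and 27.2 CPM in SmoM2-labelled males, but 36.6 and 25.9 CPM in females. The difference of its log2 fold change between males and females was 0.98, with an edgeR interaction p of 0.0154 before adjustment and 1.0 after adjustment over all genes. Ifit3 had a larger difference, 1.20, with an edgeR interaction p of 0.0873 before adjustment, and Ifit2 had the smallest such p of the 9. Oasl2 averaged 25.0 and 23.9 CPM in males and 25.8 and 42.2 CPM in females, and the female SmoM2-labelled libraries include SmoM2 3. Bst2 was higher in SmoM2-labelled libraries in both sexes, at 29.3 against 37.0 CPM in males and 28.3 against 34.4 CPM in females.

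The genes fell into partly different patterns over the 8 libraries. Of the 36 pairs, 34 had a Pearson r of log2 CPM above 0 and 7 had an adjusted p under 0.05 (exact permutation, two-sided, Benjamini-Hochberg over 36 pairs), while 0 pairs passed by Spearman's rho. The closest pair was Irf7 and Ifit1, with r = 0.936 (exact permutation p = 0.00179, adjusted 0.025) and rho = 0.857 (p = 0.0107, adjusted 0.0771). Leaving out control 3 and SmoM2 3, the farthest from the median of Ifit1, gave r = 0.875. Ifit2 and Ifit3 had r = 0.918 (exact permutation p = 0.00139, adjusted 0.025) and rho = 0.881 (p = 0.00724, adjusted 0.0771), and r = 0.944 without controls 3 and 4. Ifit2 had an r of 0.102 with Isg15 and 0.198 with Oasl2 (adjusted exact permutation p of 0.838 and 0.757). Oasl2 and Usp18 had r = 0.863 (exact permutation p = 0.0204, adjusted 0.0814), with rho = 0.524 (p = 0.197, adjusted 0.337). That relation rests on 2 libraries, since r was −0.26 without SmoM2 1 and SmoM2 3. Bst2 had r from −0.14 to 0.57 with the other 8 genes, with adjusted exact permutation p from 0.247 to 0.918.

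The genes outside the 9 whose log2 CPM was most like their mean z-score over the 8 libraries were Phf11d (Pearson r 0.965), Mustn1 (0.962), Dpy19l4 (0.938), Agpat3 (0.932) and Rnf31 (0.928). After them came Stat2 (0.925), Zbp1 (0.923), Lepr (0.918), Cacna1c (0.918) and Nos1ap (0.916). These values describe 8 libraries that also differ in the cell markers given further on, and they were picked as the highest of all genes averaging 1 CPM or more. Phf11d, Stat2 and Zbp1 are on the interferon lists described next. All 10 were highest in SmoM2 3, with Phf11d at 29.1 CPM there and 14.5 to 19.8 CPM elsewhere. Zbp1, a sensor of Z-form nucleic acid, was at 11.7 CPM against 3.32 to 6.65 CPM. With SmoM2 3 left out, the r of these 10 picked genes ranged from 0.789 (Lepr) to 0.968 (Mustn1).

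No interferon was measurable above the filter. Of 21 interferon genes (type I, Ifng and the lambda genes), 16 were at 0 in all libraries, where 0 allows up to 15 units, or 0.134 to 0.164 CPM depending on the library, for counting error only. Ifnb1, the type I interferon of fibroblasts, reached 16 units at most and was above 0 in 3 libraries. Ifng, the product of T and NK cells, also reached 16 units at most in 3 libraries, and Ifnz 33 units. Ifnb1 was highest in control 2, Ifng in control 3 and Ifnz in control 4. Ifna7 and Ifnab had their highest values in SmoM2 3, but at 4 and 3 units these were below the floor.

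Of 12 receptors and signal transducers, 10 had a higher and 2 a lower mean in SmoM2-labelled libraries, 0 passed the test, and the median log2 fold change was 0.08. The type I receptor chain Ifnar2 averaged 84.3 ± 4.72 and 79.1 ± 7.91 CPM, the interferon-gamma receptor chain Ifngr1 340.3 ± 124.0 and 359.4 ± 54.8 CPM, and the kinase gene Jak1 268.1 ± 16.0 and 278.4 ± 17.7 CPM. Stat2, which is both transducer and target, averaged 65.0 ± 5.03 and 78.5 ± 12.1 CPM (log2 fold change 0.27, SE 0.12, edgeR adjusted p 0.9999). Its highest library was again SmoM2 3, at 92.7 CPM.

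Sensors and adaptors, which detect viral nucleic acid and start interferon production, had a median of 0.18 over 16 genes, 14 higher and 2 lower, with 0 called. Without SmoM2 3, 10 were higher and 6 lower, with a median of 0.04. Ddx58, which encodes RIG-I, averaged 47.7 ± 2.96 and 51.6 ± 8.11 CPM, and the adaptor gene Myd88 74.4 ± 7.95 and 77.0 ± 6.13 CPM. Ifi204, a gene of the DNA-binding PYHIN family, had the largest difference of the list. It was at 21.0, 23.7, 33.6 and 26.6 CPM in the controls and at 39.6, 90.0, 34.1 and 76.7 CPM in SmoM2-labelled libraries, so the groups did not overlap (1.02% of all genes were apart in this direction). Its log2 fold change was 1.20 (SE 0.32, edgeR p 0.00518, adjusted 0.9999), and SmoM2 3 was the lowest of its SmoM2-labelled libraries.

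Of the interferon regulatory factors other than Irf7, 2 were higher and 5 lower, with 0 called and a median of −0.12. Without SmoM2 3 it was 3 higher and 4 lower, with a median of −0.03. Irf4, a factor of lymphocytes and dendritic cells, was at 14.1 to 21.5 CPM in the controls and 10.8 to 14.0 CPM in SmoM2-labelled libraries, again without overlap (1.42% of all genes were apart downward), with a log2 fold change of −0.41 (SE 0.16, edgeR p 0.0275, adjusted 0.9999). Irf1, a factor induced by interferon-gamma and NF-kB, averaged 91.4 ± 36.3 and 79.9 ± 10.1 CPM, Irf8, a factor of myeloid cells, 78.9 ± 22.8 and 72.5 ± 16.4 CPM, and Irf2, which opposes Irf1, 45.1 ± 11.6 and 49.7 ± 5.55 CPM.

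Among 10 negative regulators, 6 were higher and 4 lower, 0 called, with a median of 0.08, and without SmoM2 3, 7 were higher and 3 lower, with a median of 0.04. Socs3, an inhibitor of cytokine receptors, averaged 1192 ± 167.7 and 1141 ± 243.8 CPM, Samhd1, which degrades nucleotides, 133.7 ± 48.4 and 136.4 ± 20.9 CPM, and Pias1, a SUMO ligase gene, 54.2 ± 4.91 and 59.3 ± 6.98 CPM. Ptpn6, a phosphatase of blood cells, had the largest difference at 9.09 ± 2.82 and 12.7 ± 7.76 CPM (log2 fold change 0.48, SE 0.42). The 3 enzymes that attach ISG15 had a median of 0.04 (0.03 without SmoM2 3), with 2 higher, 1 lower and 0 called. The activating enzyme gene Uba7 averaged 32.7 ± 5.17 and 32.2 ± 2.71 CPM, the conjugating enzyme gene Ube2l6 19.2 ± 5.05 and 19.7 ± 6.79 CPM, and the ligase gene Herc6 23.7 ± 1.46 and 28.1 ± 7.56 CPM, with its highest value, 37.3 CPM, in SmoM2 3.

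The 48 other interferon-stimulated genes on the list resembled the 9. In SmoM2-labelled libraries 38 had a higher and 10 a lower mean, 0 were called, and the median was 0.19. SmoM2 3 was the highest library for 28 of the 48 (58.3%, against 11.2% of all genes). Without it 30 were higher and 18 lower, with a median of 0.05. Ifitm3 and Ifitm2, which encode membrane proteins that block virus entry, averaged 409.9 ± 20.5 and 394.1 ± 40.8 CPM, and 247.1 ± 96.6 and 239.0 ± 89.6 CPM. The helicase-like gene Helz2 averaged 122.3 ± 20.5 and 138.8 ± 18.4 CPM. Oas3, an oligoadenylate synthetase, had the largest difference once means under 1 CPM were set aside, at 0.85 ± 0.30 and 1.80 ± 1.14 CPM (log2 fold change 1.07, SE 0.52, edgeR p 0.0703, adjusted 0.9999). Oas2 is the 1 gene of these 48 whose groups did not overlap (1.02% of all genes were apart in this direction), and is named after its values were seen: 3.02 to 4.12 CPM in the controls and 4.39 to 8.97 CPM in SmoM2-labelled libraries, a log2 fold change of 0.86 (SE 0.25, edgeR p 0.00734, adjusted 0.9999).

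Genes that lean to interferon-gamma did not share the higher means. Of 24 tested, 12 were higher and 12 lower, 0 called, with a median of −0.01, and −0.15 without SmoM2 3. Guanylate-binding protein gene Gbp2 averaged 85.2 ± 9.90 and 87.9 ± 18.2 CPM, and the immunity-related GTPase genes Iigp1 and Irgm2 46.4 ± 10.9 and 45.0 ± 19.7 CPM, and 36.7 ± 10.9 and 34.8 ± 8.64 CPM. Tgtp2, another such GTPase, had the largest difference, at 2.89 ± 1.27 and 1.76 ± 0.61 CPM (log2 fold change −0.71, SE 0.36). SmoM2 3 was the highest library for 9 of the 24 (37.5%, against 11.2% of all genes). Without it 6 were higher and 18 lower.

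**Figure D4:**
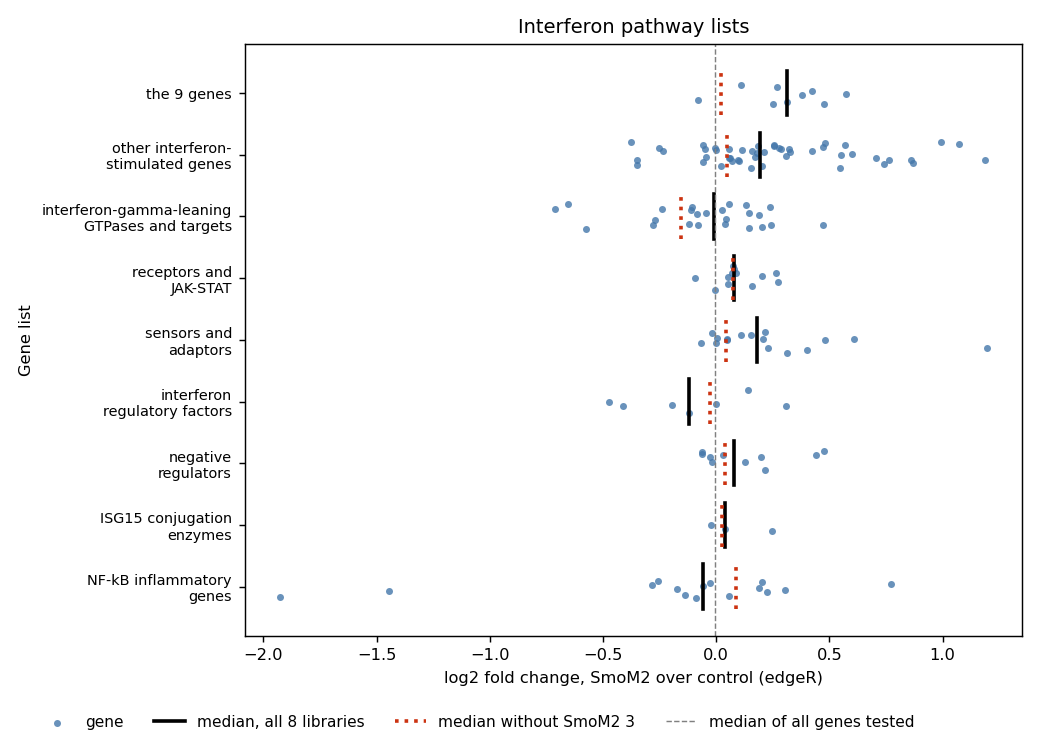
log2 fold change of SmoM2-labelled over control libraries (horizontal axis) for each tested gene (points) of the 9 genes, 7 further interferon pathway lists and an NF-kB inflammatory list; black lines are medians with all libraries, dotted red lines medians without SmoM2 3, and the dashed line the median of all genes tested. The median of the 9 genes moves from 0.31 to 0.02 without SmoM2 3 and that of the other interferon-stimulated genes from 0.19 to 0.05.

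Inflammatory genes under NF-kB followed another order of libraries. Their summed level was 2998, 4670, 5676 and 2430 CPM in controls 1 to 4 and 4067, 5138, 2609 and 3191 CPM in SmoM2 1 to 4, so SmoM2 3 was the lowest but for control 4. SmoM2 2 and control 2, with high sums, had log2 medians of 0.39 and 0.28 above the control mean over the 9 genes. None of the 15 NF-kB genes tested was highest in SmoM2 3, where 11.2% of all genes were highest. Of the 15, 7 were highest in control 3 (10.9% of all genes), the library lowest for 4 of the 9 interferon-stimulated genes. The most abundant were Nfkbiz, which encodes a nuclear cofactor of NF-kB (844.8 ± 159.5 and 795.4 ± 202.0 CPM), the cyclooxygenase gene Ptgs2 (703.0 ± 344.9 and 638.4 ± 312.2 CPM) and the inhibitor gene Nfkbia (483.5 ± 252.1 and 404.6 ± 101.8 CPM). The chemokine gene Cxcl2 had the largest difference once means under 1 CPM were set aside, at 31.1 ± 8.90 and 53.1 ± 25.5 CPM (log2 fold change 0.77, SE 0.34, edgeR adjusted p 0.9999). Of the 15, 6 were higher and 9 lower, with 0 called and a median of −0.06, and without SmoM2 3 the order turned to 9 higher and 6 lower with a median of 0.09.

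Markers of other cells moved between libraries beside these genes, and their part in the values was not tested. Macrophage and monocyte markers summed to 522.2 to 761.8 CPM in the controls and 549.4 to 1681 CPM in SmoM2-labelled libraries, with all 12 higher in mean and 10 of 12 highest in SmoM2 4. SmoM2 4 was the highest library for none of the 9 interferon-stimulated genes. It was highest for 27 of 120 tested genes on the other interferon lists, where 14.5% of all genes were highest there. The macrophage and monocyte markers summed to 826.7 CPM in SmoM2 3. Neutrophil markers summed to 12.5 to 58.5 and 16.2 to 145.4 CPM, with 6 of 6 higher in mean. Epithelial markers summed to 929.6 CPM in SmoM2 3 and 1502 CPM in control 4, against 223.5 to 421.8 CPM in the other 6 libraries. Most of the sum in SmoM2 3 came from Sftpc, Sftpb and Sftpa1, at 563.9, 154.9 and 155.1 CPM. Scgb1a1 was lowest in that library, at 23.5 CPM. Of the epithelial markers, 9 of 10 were lower in mean. Mesothelial markers summed to 271.2 to 482.3 CPM in the controls and 100.3 to 218.4 CPM in SmoM2-labelled libraries, with 8 of 8 lower in mean. All 4 SmoM2-labelled libraries were thus below all 4 controls, with SmoM2 3 lowest at 100.3 CPM and SmoM2 4 next at 123.4 CPM. Taken singly, 3 of the 8 had groups that did not overlap (1.42% of all genes were apart downward). DESeq2 called the mesothelial genes Msln, Upk3b and Gpm6a and the endothelial gene Esam lower in SmoM2-labelled libraries, while edgeR called none. Endothelial markers summed to 117.2 to 226.5 and 112.5 to 185.8 CPM (8 of 10 lower), and lymphocyte markers to 12.0 to 64.7 and 13.2 to 101.3 CPM (6 of 10 lower).

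Plasmacytoid dendritic cells make much Irf7 and Bst2 at rest. Their 9 markers summed to 116.9 to 216.7 CPM in the controls and 163.7 to 209.1 CPM in SmoM2-labelled libraries. Most of each sum came from Tcf4, which stromal cells also express, and 6 of 9 markers were higher in mean. Ccr9 was at 16.0 CPM in SmoM2 4 and 12.0 CPM in control 1, against 0.41 to 3.86 CPM elsewhere. Siglech, the defining receptor gene of plasmacytoid dendritic cells, was at 0.51 to 0.86 CPM in the controls. In SmoM2 1 to 4 it was at 0.43, 0.91, 0.32 and 1.17 CPM. Siglech rests on few counts, 34 to 123 units per library. It was lowest in SmoM2 3, which held for no other marker of this list. The 9 markers summed to 181.1 CPM in SmoM2 3, within the range of the controls. No listed marker of any of these cell types was at 0 in every library.

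**Figure D5:**
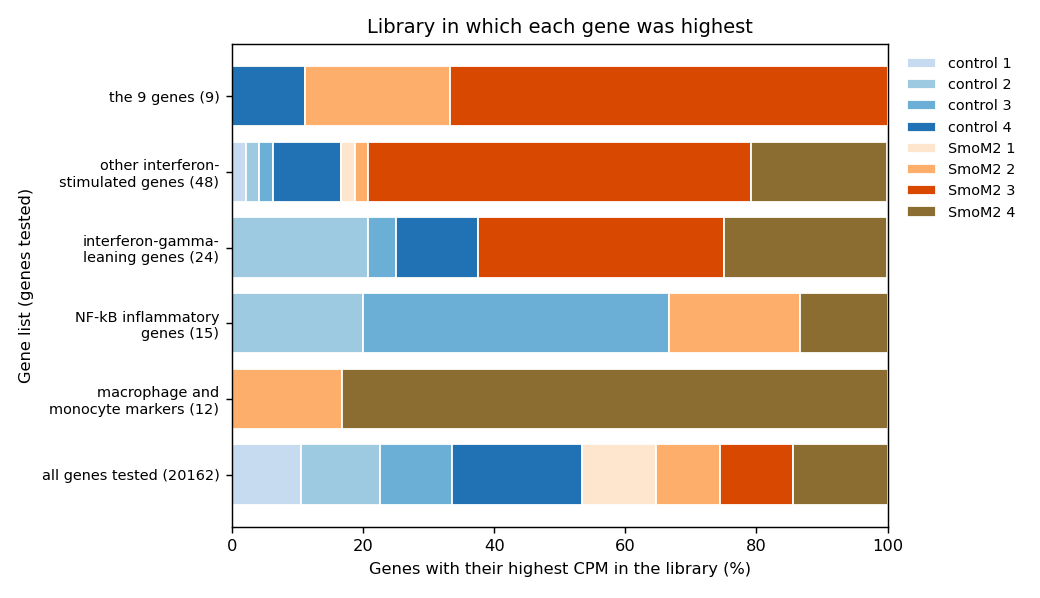
Share of the tested genes of each list (bars, in percent, with the number of genes in parentheses) that had their highest CPM in each of the 8 libraries (colours). SmoM2 3 takes 6 of the 9 genes and 28 of 48 other interferon-stimulated genes, none of the NF-kB list, and none of the macrophage and monocyte markers, 10 of 12 of which were highest in SmoM2 4.

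In the authors' deposited table the group means of the 9 genes, on the authors' normalised scale, ran from 234.1 (control) and 350.2 (SmoM2) for Rsad2 to 2882 and 3589 for Bst2. The authors' p was smallest for Rsad2 (0.141), followed by Isg15 (0.158) and Bst2 (0.19), and the authors' adjusted p was 1.0 for all 9.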

How the data were processed

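The authors deposited estimated counts per Ensembl gene, already whole numbers, for 4 control and 4 SmoM2 libraries, and a comparison table. Per the submitters' processing notes, FastQC, HISAT, StringTie and DESeq were used with mm10; versions, roles and the strand setting are not given in the sources used here. The second deposited table holds, per the file headers, normalised signal averaged by the authors within each group. It also holds the deposited ratio of those averages as a fold and on the log2 scale. Raw and adjusted p-values stand beside them as deposited. Counts divided by median-of-ratios factors gave the authors' means to within a relative difference of 4.6e-09, with SmoM2 over control.

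The commonest value above 0 was 5 units in all libraries, so 1 fragment was taken as 5 units (18.3 to 22.3 M fragments per library) and the floor of 3 fragments as 15 units. This is an assumption. Tests used edgeR 4.0.16 in R 4.3.3 (TMM, filterByExpr, robust quasi-likelihood fit, group as the sole term, Benjamini-Hochberg threshold 0.05), tested on simulated data. Standard errors were derived from each gene's F statistic and log2 fold change, and intervals are 95%. DESeq2 1.42.0 and limma 3.58.1 served as alternatives. log2 CPM used a prior count of 2. Symbols came from the reference for 99.3% of identifiers, and coordinates and exon lengths from GENCODE M21 (mm10).

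The members and lists were chosen with earlier results of these data known. The naming rule took all 9 genes and, from each list, called genes, the 3 highest by mean CPM, the largest difference at a mean of 1 CPM or more, and the 10 genes closest in pattern. Each title carries its own number, read as a separate mouse, and p-values measure the spread between these samples.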

Additional observations from a re-analysis of the deposited data

Results flagged for a closer look

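Each of 39 genes was checked in both groups, 78 checks, for a library whose gap to the other 3 of its group, as a share of the group's range, was above Dixon's 95% critical value, which chance gives in about 1 of 20 checks. Bst2 in SmoM2 2 was at 39.4 CPM, against 34.2 to 34.7 CPM in the other 3 SmoM2-labelled libraries. Ifitm2 in SmoM2 1 was at 105.1 CPM, against 275.1 to 294.4 CPM in the other 3, and control 3, at 109.7 CPM, was also low for it.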

How the results depend on the processing

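Across 17 alternatives, 0 of the 9 genes and 0 genes of the other pathway and NF-kB lists were called. DESeq2 called 65 genes in all, none of them on those lists, where edgeR called 0 (756 at an unadjusted p under 0.05), and leaving out 1 library gave 0 to 1 called genes (Gm20716, without SmoM2 4). Of 153 values of single genes, 141 kept their direction and side of the threshold and 12 changed direction. Female libraries alone gave −0.36 for Ifit3, and male libraries alone gave 0.48 for Ifit2, −0.066 for Oasl2 and −0.14 for Usp18, and the cause was not tested. With 1 library left out, the log2 fold change ranged from −0.24 to 0.15 for Ifit2, from −0.14 to 0.33 for Ifit3, from −0.033 to 0.56 for Oasl2 and from −0.22 to 0.47 for Usp18. The median of the 9 ranged from 0.02 (without SmoM2 3) to 0.47 (without SmoM2 1), and Bst2 from 0.26 to 0.33. Summing Ifit3 and Ifit3b, chosen after seeing the data, moved the log2 fold change of Ifit3 from 0.11 to 0.25 without a call. No paired analysis was possible because the columns carry no animal and the labels give the groups no shared replicate numbers.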

Other observations

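Several interferon-stimulated genes outside the 9 were set apart by SmoM2 3 alone, and are named after their values were seen. Xaf1, a gene tied to cell death, was at 53.0 CPM in SmoM2 3 and at 12.5 to 25.6 CPM in the other 7 libraries. Ifi44, which encodes a cytoplasmic protein of the interferon response, was at 8.10 CPM there and at 0.96 to 3.47 CPM elsewhere. Eif2ak2, which encodes the double-stranded RNA kinase PKR, was at 38.4 CPM against 17.0 to 22.9 CPM. Mx1, an antiviral GTPase gene, did not share this order, at 1.68 CPM in SmoM2 3 and 1.38 to 2.73 CPM elsewhere. Cxcl10, a chemokine gene induced by interferon and NF-kB, was highest in controls 2 and 3, at 43.8 and 41.8 CPM, and at 22.2 CPM in SmoM2 3.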
